A study of Mus musculus with 12 samples.

Results

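Solute carriers are the membrane proteins, named with the gene prefix Slc, that move amino acids, sugars, ions, metals and other small molecules into and out of cells and organelles without splitting ATP themselves. They were taken here as every gene symbol beginning with Slc, followed by a digit or by o, in any of 3 tables of mRNA ratios. The rule found 34 genes among 2091 listed genes, with 42 ratios in all: 12 at day 2, 10 at day 4 and 20 at day 8. Members were thus chosen by the ratios that put a gene in a table, and the ratios are given as a description, with no test. AKR-2B cells, a mouse fibroblast line, had been grown as colonies in soft agar, where cells must grow unattached, and received vehicle or 25 ng/mL TGFβ for 2, 4 or 8 days. Each condition and day had 1 mRNA library, 6 in all, so no difference has a replicate check and no value carries a replicate error.

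Most families of solute carriers have a known kind of substrate, and many families are driven by gradients of sodium or protons. Amino acid carriers such as the Slc1, Slc7 and Slc38 families feed protein synthesis and glutathione, the Slc20 and Slc34 families bring in phosphate, and the Slc30, Slc39 and Slc40 families set the zinc and iron content of a cell. Fibroblasts are known to take up more amino acids and glucose when growth factors stimulate them.

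Each authors' deposited table lists 998 genes, 499 with a ratio above 1 and 499 below, and no level for either library. Which library is the numerator is not in the headers. The ratios were taken as TGFβ over vehicle because listed direct TGFβ targets, 10 of 32 on a list of such genes, then lay mostly above 1. Day 2 had 2 above and 0 below, day 4 had 9 against 1, and day 8 had 4 against 1. Read the other way, every direction below inverts. All but 3 of the 2994 ratios equal, to the last printed digit, 2 odd whole numbers divided by each other, which is the form of reads plus 0.5 in both libraries with no scaling for depth. Because large numbers were searched too, a ratio below 1 can find such a pair by accident. The share matched therefore does not by itself show the form. If that form holds, the fewest reads behind each ratio follow from those numbers: a ratio of 9 is 4 reads against 0, or 13 against 1, and so on by odd multiples. Read counts given for a gene below are these fewest reads, and the true counts may be larger. A 95% interval from the binomial distribution (exact, conditional on the total) was computed at the fewest reads, where it is widest. It covers counting error and nothing else, as reads that carry no molecular identifiers are not independent molecules. Depth differences between the libraries stay in every ratio and every interval. In colonies, fewer cells of a type and less RNA per cell cannot be told apart.

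The listed carriers lay on both sides of 1, with 14 genes above and 20 below. Of the 34, 28 were listed on 1 day and so could take 1 side only, and the 6 listed on more days kept to 1 side. At day 2, 3 were above 1 and 9 below, where 50.0% of all listed genes are above by the tables' construction. Day 4 had 7 above and 3 below, and day 8 had 9 above and 11 below, with the same 50.0% for all genes. At the fewest, most of these ratios rested on few reads. The form of 0 reads in 1 library was taken by 26 of the 42: 8 of 12 in the day 2 table, 5 of 10 in day 4 and 13 of 20 in day 8, where 66.8%, 57.2% and 56.6% of all listed genes took it. For 28 ratios the fewest reads were under 20 in both libraries. Only 14 ratios, of 10 genes, needed at least 20 reads in 1 library: 3 of 12 at day 2, 3 of 10 at day 4 and 8 of 20 at day 8, against 29.7%, 39.4% and 42.3% of all listed genes. By side, these were 0, 2 and 2 above 1 (8.92%, 21.2% and 19.4% of all listed genes) and 3, 1 and 6 below (20.7%, 18.1% and 22.8%). Those 10 genes were Slc20a1 and Slc40a1 above 1, and Slc1a3, Slc4a11, Slc6a4, Slc6a12, Slc7a2, Slc24a3, Slc25a34 and Slc26a7 below it. The interval left out a ratio of 1 for 7 of 12 carriers at day 2, 5 of 10 at day 4 and 12 of 20 at day 8, while 46.1%, 61.6% and 64.9% of all listed genes did so. It lay wholly beyond 2-fold, the shift that a 2-fold depth difference could make, for 3, 4 and 8 carriers, against 34.0%, 47.8% and 49.8% of all listed genes.

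**Figure D1:**
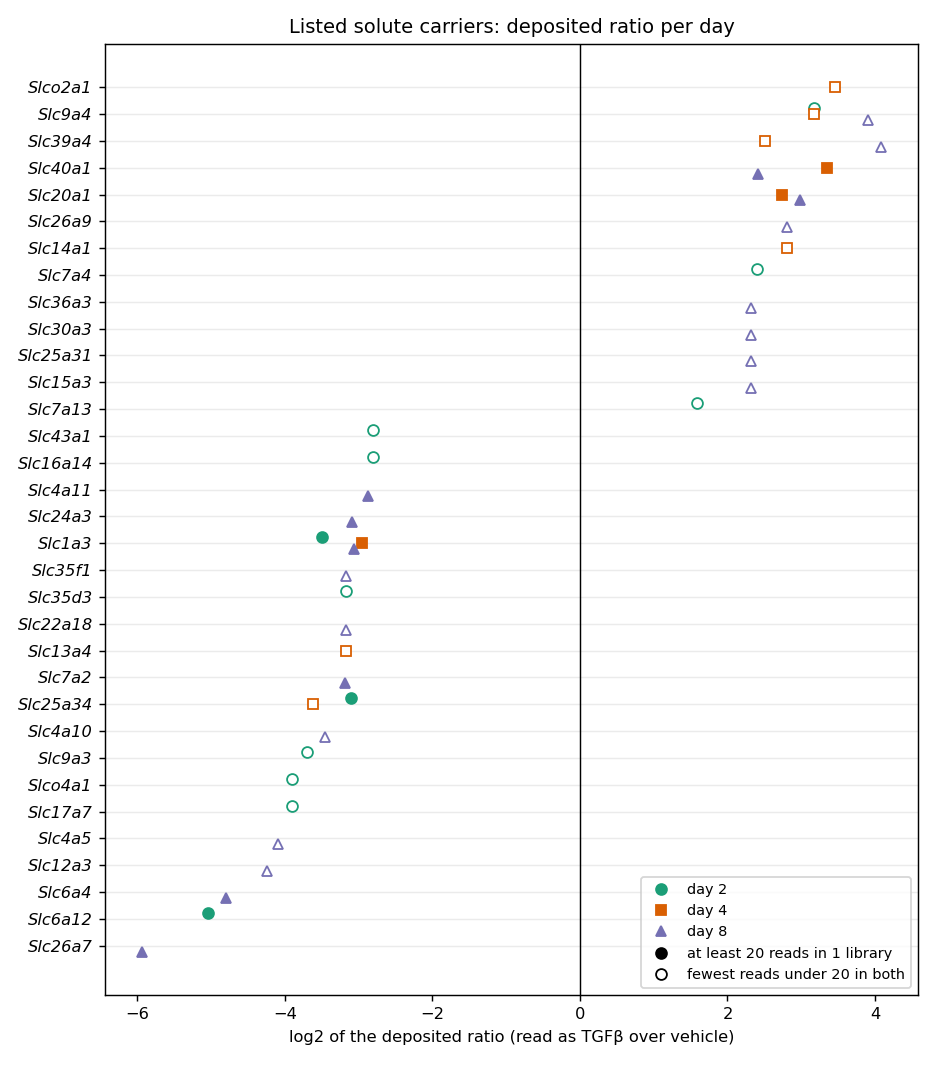
The log2 of the deposited ratio (x axis, read as TGFβ over vehicle) is plotted for the carriers named in the text, with the shape and colour of a point giving the day. Filled points needed at least 20 reads in 1 library: only Slc20a1 and Slc40a1 are filled on the right, and 8 genes are filled on the left.

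The tables end at different folds on their 2 sides, so the carrier counts of the 2 sides are not counts at a common fold. At day 2 the least listed ratio above 1 was 3 in the authors' deposited table, shared by 186 genes, and at days 4 and 8 it was 5, shared by 82 and 108 genes. Below 1 the tables end 7-fold down at every day. Slc7a13, an aspartate and glutamate carrier of kidney, stood just inside at 3 in the day 2 authors' deposited table, the form of 1 read against 0. Tied at 5 in the day 8 authors' deposited table, the form of 2 reads against 0, were 4 genes: Slc15a3, a lysosomal histidine and peptide carrier, Slc25a31, an ADP/ATP carrier of testis mitochondria, Slc30a3, the zinc carrier of synaptic vesicles, and Slc36a3. On the lower side Slc16a14 and Slc43a1, a system L amino acid carrier, stood just inside at 7-fold lower in the day 2 authors' deposited table, the form of 0 reads against 3. No fold is drawn from such pairs, where both libraries are at or under 3 reads. Values of genes outside the tables were not used here. With 7-fold asked of both sides, carriers above 1 numbered 1, 5 and 4 (11.0%, 33.0% and 31.9% of all listed genes), and those below stayed at 9, 3 and 11. At 10-fold they numbered 0, 2 and 2 above (4.71%, 16.8% and 16.1%) and 5, 1 and 5 below (26.7%, 27.6% and 32.8%).

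To show the start sites of the carriers that the results turn on, the 250 bases before the RefSeq start at the gene's 5′ end are printed for Slc1a3, listed below 1 at all days, for Slc20a1, the member above 1 with the most reads, and for Slc6a12, the lowest ratio of day 2 among the carriers. Capitals mark 2 strings on either strand. TGANTCA, with N any base, is a looser form of the AP-1 site TGA(C or G)TCA, and CAGAC is the box bound by SMAD proteins. The sequences are from RefSeq on GRCm38.p6, written 5′ to 3′ on the strand of the gene: chr15:8710808-8711057 (minus strand), chr2:129198523-129198772 (plus) and chr6:121342324-121342573 (plus).
Slc1a3: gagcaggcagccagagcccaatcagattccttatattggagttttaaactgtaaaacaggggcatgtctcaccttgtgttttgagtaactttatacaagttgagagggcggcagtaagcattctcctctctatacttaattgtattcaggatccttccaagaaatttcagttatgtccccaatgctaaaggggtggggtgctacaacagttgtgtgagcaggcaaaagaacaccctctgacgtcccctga
Slc20a1: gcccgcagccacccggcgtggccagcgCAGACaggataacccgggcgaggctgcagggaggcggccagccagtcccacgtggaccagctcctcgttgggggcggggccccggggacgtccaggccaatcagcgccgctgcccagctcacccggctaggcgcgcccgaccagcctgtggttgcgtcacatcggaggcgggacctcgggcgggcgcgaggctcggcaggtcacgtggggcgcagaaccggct
Slc6a12: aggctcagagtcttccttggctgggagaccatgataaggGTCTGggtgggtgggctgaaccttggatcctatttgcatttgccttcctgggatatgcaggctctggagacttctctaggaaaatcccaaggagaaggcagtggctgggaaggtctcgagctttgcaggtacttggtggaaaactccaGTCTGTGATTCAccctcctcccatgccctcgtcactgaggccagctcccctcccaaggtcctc
The Slc1a3 window held neither string. The Slc20a1 window held CAGAC 1 time, at bases 223 to 219 before the start. In the Slc6a12 window a TGANTCA match stood at bases 58 to 52, next to 1 of its 2 CAGAC matches, at bases 63 to 59. Its letters were TGATTCA, which differ from the AP-1 site at the middle base. The pattern, though not these letters, reads as itself on the other strand. Base composition differed: GC content was 44.8% for Slc1a3, 75.2% for Slc20a1 and 55.6% for Slc6a12, with a median of 52.4% over all windows. Of 34 carriers, 23 had entries, with 32 windows between them. TGANTCA was in 6.25% and CAGAC in 50.0% of these 32, against 6.75% and 42.2% of 32817 RefSeq windows of the same length. Windows of 1 gene can overlap: Slc6a12 has 5, of which 4 hold CAGAC and only the printed one TGANTCA, and the second window of Slc20a1 holds CAGAC 2 times. Counted per gene, 10 of the 23 had CAGAC and 2 had TGANTCA in any window. A match is a string of letters and not a shown binding site.

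Among amino acid carriers, Slc1a3 was below 1 at every day and rested on the most reads. It encodes the sodium-coupled glutamate and aspartate transporter GLAST, best known from astrocytes, and lies at chr15:8634124-8710807. The fewest reads were 628 with TGFβ against 7101 with vehicle at day 2, then 193 against 1496 at day 4 and 689 against 5734 at day 8. The vehicle library was the higher one each time. In the authors' deposited table this was 11.3-fold lower at day 2 (95% counting interval 10.4 to 12.3), 7.73-fold lower at day 4 (6.67 to 9.05) and 8.32-fold lower at day 8 (7.69 to 9.02). The day 2 interval does not overlap the others, but 6 unscaled libraries enter these ratios, so a day effect and depth cannot be told apart. Slc1a3 ranked 217, 423 and 444 of the 499 genes below 1, nearer the end of the list than its start at days 4 and 8.

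Slc7a2, a carrier of arginine and other cationic amino acids at chr8:40862341-40922070, was listed at day 8 only. Its fewest reads were 16 with TGFβ and 149 with vehicle, 9.06-fold lower by the authors' deposited table (5.55 to 16.7). Slc7a4 of the same family, whose own transport activity is not established, had 18 reads with TGFβ and 3 with vehicle at day 2, a ratio of 5.29 in the authors' deposited table (1.75 to 31.8). The 2 genes were listed at different days, so no comparison between them was made. Exons of Slc7a2 share 635 bases with Gm26584 and those of Slc7a4 share 554 with P2rx6, each on the opposite strand. Of 44 amino acid carriers in RefSeq, 6 were listed on any day, 3 above 1 and 3 below, and the 2 that needed at least 20 reads, Slc1a3 and Slc7a2, were both below.

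Phosphate and iron carriers made up the well-read members above 1. Slc20a1, a sodium-phosphate cotransporter that also serves as a retrovirus receptor, lies at chr2:129198773-129211615. It had fewest reads of 974 with TGFβ and 146 with vehicle at day 4, and 10835 and 1370 at day 8. The TGFβ library was the higher one at both days. Its ratio was 6.65 at day 4 (5.60 to 7.99) and 7.91 at day 8 (7.48 to 8.37) in the authors' deposited table. The 2 intervals overlap. Its exons share 452 bases with 9830144P21Rik and 280 with Gm4430 on the opposite strand, and no source used here states that reads were counted by strand.

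Slc40a1 encodes ferroportin, the iron exporter of cells, and lies at chr1:45908070-45926532. It had fewest reads of 513 with TGFβ and 50 with vehicle at day 4, and 554 and 104 at day 8. Both days had more reads with TGFβ. The ratio in the authors' deposited table was 10.2 at day 4 (7.66 to 14.0) and 5.31 at day 8 (4.31 to 6.63). These intervals do not overlap, with depth unscaled as above.

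Slc39a4, the zinc importer ZIP4, was listed above 1 on the same days, with few reads at the fewest. Its fewest reads were 8 with TGFβ and 1 with vehicle at day 4, a ratio of 5.67 in the authors' deposited table (1.07 to 355). At day 8 the form was 8 reads against 0, a ratio of 17 in the authors' deposited table, with a lower limit of 1.71 and no upper limit. With 0 set to 3 reads, the day 8 fold is 2.67. Of 32 metal carriers in RefSeq, 3 were listed (9.38%, beside 8.74% of all Slc genes): Slc30a3, Slc39a4 and Slc40a1. All 3 were above 1, where 50.0% of all listed genes lie. Slc40a1 alone needed at least 20 reads, and Slc30a3 had the form of 2 reads against 0, from which no fold is drawn.

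Slc9a4, a sodium/proton exchanger best known from stomach, was the other member listed at all 3 days, each time above 1. Its forms were 4 reads against 0 at days 2 and 4 and 7 against 0 at day 8, with ratios of 9, 9 and 15 in the authors' deposited table. The intervals had lower limits of 0.660, 0.660 and 1.44 and no upper limits. With 0 set to 3 reads the folds were 1.33, 1.33 and 2.33. Its exons share 764 bases with Gm37435 and 207 with Gm35801 on the opposite strand. Slc9a3, the exchanger of kidney and gut, went the other way at day 2, with the form of 0 reads with TGFβ and 6 with vehicle, 13-fold lower by the authors' deposited table (interval from 1.18).

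**Figure D2:**
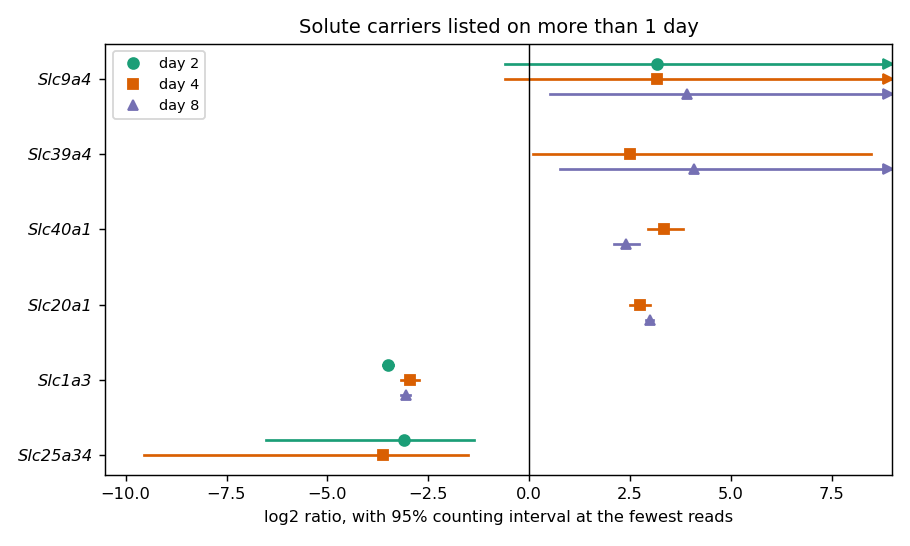
The log2 ratio (x axis) of the 6 carriers listed on more than 1 day is plotted with its 95% counting interval at the fewest reads; arrowheads mark intervals with no upper limit. Slc1a3, Slc20a1 and Slc40a1 have short intervals away from 0, while those of Slc9a4 at days 2 and 4 cross 0.

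Ion carriers below 1 appeared mostly at day 8, where 6 were listed. Slc26a7, an anion exchanger at chr4:14502430-14621946, was the lowest ratio among the carriers at any day. It had the form of 0 reads with TGFβ and 30 with vehicle, 61-fold lower by the authors' deposited table with a lower limit of 7.64, or 10-fold with 0 set to 3 reads. It ranked 29 of the 499 genes below 1. Slc24a3, a sodium/calcium-potassium exchanger at chr2:145167775-145642166, rested on 257 reads with TGFβ and 2183 with vehicle and was 8.48-fold lower by the authors' deposited table (7.46 to 9.70). Slc4a11, placed with the bicarbonate transporters though it is known to move protons, ammonia and water instead, had 102 reads and 749. It was 7.31-fold lower by the authors' deposited table (5.96 to 9.12) and ranked 488 of 499, near the end of the table.

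Slc26a9, a chloride transporter of the same family as Slc26a7, lay on the other side at day 8, at 7 in the authors' deposited table. Its form of 3 reads against 0 allows no fold, so the 2 family members cannot be set against each other. Slc12a3, the thiazide-sensitive sodium-chloride cotransporter of kidney, had the form of 0 reads against 9 and was 19-fold lower then by the authors' deposited table (from 1.97). The sodium-bicarbonate carriers Slc4a5 and Slc4a10 had the forms of 0 against 8 and 0 against 5, 17-fold and 11-fold lower then by the authors' deposited table (from 1.71 and from 0.916). In all, 10 of 59 inorganic ion carriers in RefSeq were listed, 3 above 1 and 7 below.

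**Figure D3:**
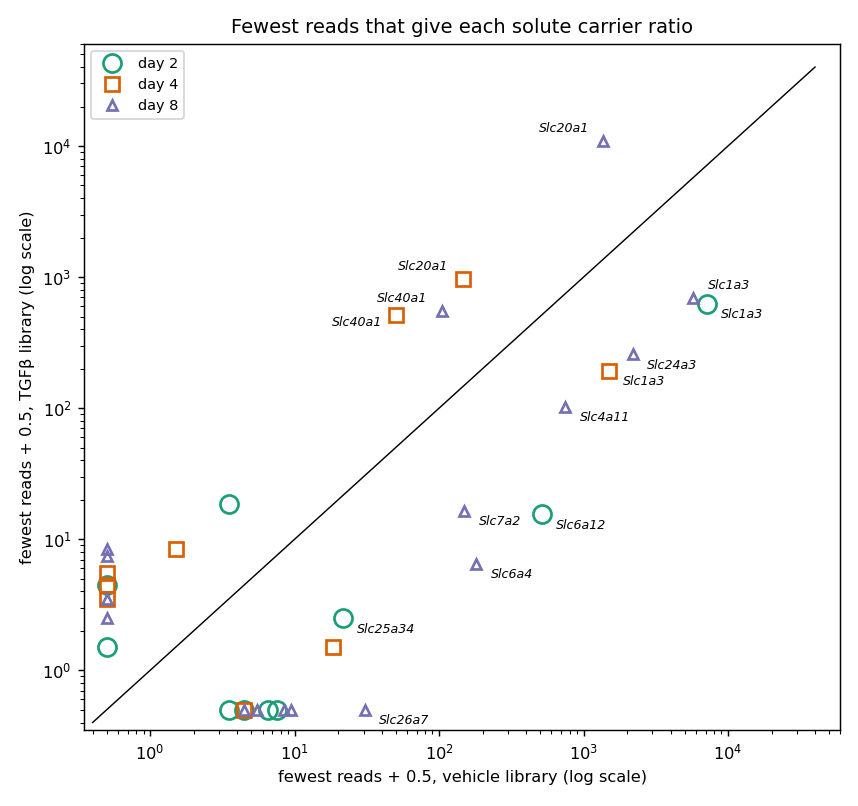
The fewest reads plus 0.5 in the vehicle library (x axis) and the TGFβ library (y axis), both on log scales, are plotted for the 42 ratios; points of equal value lie on top of each other, and names are given from 20 reads up. The ratios at the lower left have 0 reads in 1 library, and Slc20a1 and Slc1a3 lie far from them on opposite sides of the line of equal reads.

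Carriers of neurotransmitters and related amines were below 1 where reads were many. Slc6a12, the betaine and GABA transporter that cells use to balance osmotic stress, had fewest reads of 15 with TGFβ and 512 with vehicle at day 2. It was 33.1-fold lower by the authors' deposited table (20.5 to 61.4), rank 35 of 499, and was not listed at days 4 and 8. Slc6a4, the serotonin transporter at chr11:76998597-77032343, had 6 reads and 180 at day 8 and was 27.8-fold lower by the authors' deposited table (13.5 to 82.8), rank 81. Slc17a7, the vesicular glutamate transporter VGLUT1, had the form of 0 reads against 7 at day 2 and was 15-fold lower by the authors' deposited table (from 1.44). Of 34 carriers of this class in RefSeq, 4 were listed.

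Slc25a34, a mitochondrial carrier of unknown substrate at chr4:141618819-141623891, was below 1 at days 2 and 4. Its fewest reads were 2 with TGFβ and 21 with vehicle, and then 1 and 18. This was 8.6-fold lower at day 2 (2.57 to 92.4) and 12.3-fold lower at day 4 (2.84 to 750) in the authors' deposited table. The wide intervals overlap. It and Slc25a31 were the only listed genes of 47 mitochondrial carriers.

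The other members had single listings, each with few reads at the fewest. Above 1 at day 4 were Slco2a1, the prostaglandin transporter, at 11 in the authors' deposited table (5 reads against 0), and Slc14a1, the urea transporter, at 7 in the authors' deposited table (3 against 0). Below 1 were Slco4a1, an organic anion transporter, 15-fold lower by the day 2 authors' deposited table (0 reads against 7), and Slc13a4, a sulfate carrier, 9-fold lower by the day 4 authors' deposited table (0 against 4). Slc35d3 at day 2, and Slc22a18 and Slc35f1 at day 8, were also 9-fold lower by the authors' deposited table, each in the form of 0 reads against 4. Intervals of these genes include 1, except that of Slco4a1, which starts at 1.44.

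**Figure D4:**
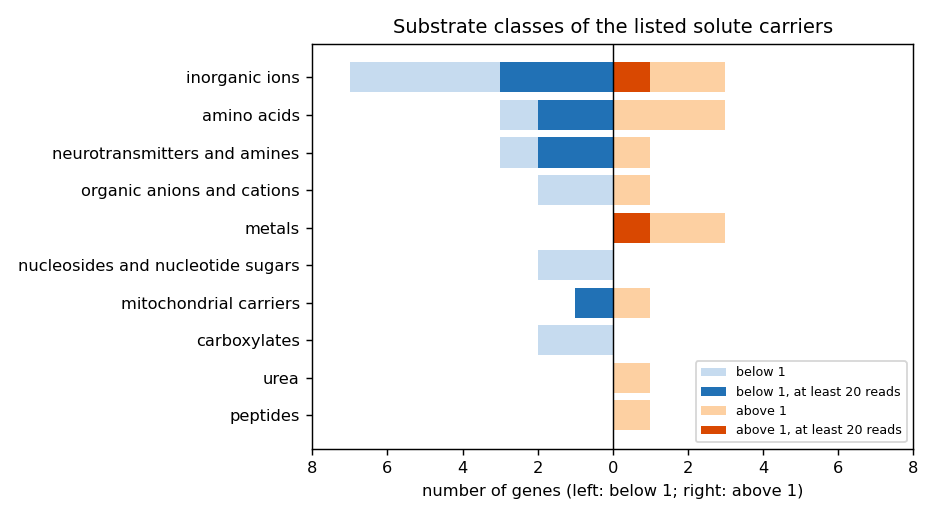
The number of listed genes per substrate class is drawn to the left for ratios below 1 and to the right for ratios above 1, with darker bars for genes that needed at least 20 reads in 1 library. Metal carriers, of which Slc40a1 alone needed that many reads, lie on the right alone. Ion carriers extend farther to the left, with 7 genes, than to the right, with 3.

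By substrate, the 34 genes fell into 10 classes and 23 families. None of 34 sugar carriers, 13 vitamin and heme carriers, or 12 carriers of lipids and choline in RefSeq was listed, which does not show them unchanged. As a share of the annotation, 34 of 389 protein-coding Slc genes were listed (8.74%), beside 1785 of 21900 protein-coding genes in all (8.15%). Of the classes counted above, it was 13.6% for amino acids, 16.9% for inorganic ions and 9.38% for metals. It was 11.8% for neurotransmitters and amines and 4.26% for mitochondrial carriers. Differences between classes were not tested. Recurrence between days was less frequent than over all listed genes as counted: 6 of 34 carriers (17.6%) were listed on more than 1 day and 2 (5.88%) on all 3, against 31.9% and 11.3% of 2091 genes. Days 4 and 8 shared 5 carriers, days 2 and 4 shared 3, and days 2 and 8 shared 2. With at least 20 reads required, 3 of 10 carriers recurred (30.0%), against 46.8% of 662 genes. None of the 6 carriers listed on more than 1 day changed sides, while 48 of the 667 genes so listed did. With 6 carriers this shows no difference. The difference in recurrence was not tested. Genes of many reads recurred more often in both sets.

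Median folds of the listed carriers were higher than those of all listed genes at day 2 on both sides of 1, and lower at day 8 on both. Above 1 they were 5.29, 9 and 5.31 at days 2, 4 and 8, beside 4.33, 7.67 and 7 for all genes in the authors' deposited table. Below 1 they were 11.3-fold, 9-fold and 9.06-fold, beside 11-fold, 11-fold and 12.6-fold. Each carrier median rests on 3 to 11 genes, and the differences were not tested.

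Other membrane transport genes, from lists of 76 genes in 5 groups, included 18 that were listed: 2, 4 and 4 above 1 and 7, 6 and 6 below it at the 3 successive days. Beside this, 8.15% of all protein-coding genes were listed, and 50.0% of listed genes lie on each side; the difference was not tested. Mfsd2a, a carrier of lysophospholipids that has no Slc symbol in the tables, was above 1 at every day, with 21 reads against 2, 33 against 3 and 23 against 3, and ratios of 8.6, 9.57 and 6.71 in the authors' deposited table. Fxyd1, a regulator of the sodium pump, was below 1 by 11.4-fold, 18.6-fold and 8.70-fold in the authors' deposited table, from 2 reads against 28, 10 against 195 and 39 against 343.

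The water channel gene Aqp1 was lower at each day, 13.7-fold, 31.4-fold and 104-fold in the authors' deposited table, from 41 reads against 568, 221 against 6953 and 138 against 14400. The listed ABC transporters, which do use ATP, lay below 1 apart from Abcb1a at day 8 (12 reads against 0). By the authors' deposited table Abca8b was down 17.9-fold on day 4 (23 reads against 419) and 17.5-fold on day 8 (33 against 586). Abcd2 was down 15.3-fold on day 2 (52 against 804) and 7.67-fold on day 4 by the authors' deposited table. The day 4 value of Abcd2 rested on 1 read against 11 (1.60 to 473). Abca9 stood 11-fold, then 29-fold and 23-fold down by the authors' deposited table, in the form of 0 reads against 5, 14 and 11. Of 18 glycolysis genes, Hk2 alone was listed, with 7.24 and then 5.45 by the authors' deposited table of days 4 and 8. Of 21 genes of amino acid synthesis and stress, Cth and Ass1 were listed. Cth, which makes cysteine, had 8.38 and 11 by the authors' deposited table of days 4 and 8, and Ass1, of arginine synthesis, 13 and 9; all but the first had fewest reads of 4 to 6 against 0.

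The tables hold no levels, so the fibroblast label could not be checked by expression: of 10 fibroblast markers, Fap alone was listed, with 27 in the day 8 authors' deposited table. Of 30 markers of leukocytes, epithelium, endothelium, adipocytes and nerve, 10 were listed, with 4, 5 and 6 above 1 and 0, 1 and 1 below at the 3 successive days, beside the same 8.15% of protein-coding genes listed and 50.0% on each side. Endothelial Cdh5 had ratios of 31, 63 and 65 in the authors' deposited table, the form of 15, 31 and 32 reads against 0. Krt8, a keratin of epithelium, had 33 on day 2 and 8.6 on day 4 by the authors' deposited table. Their part in the carrier ratios was not tested.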

How the data were processed

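The 6 mRNA libraries (1 per condition and day) are represented by 3 tables, 1 per day, of a ratio per gene deposited by the authors, with no per-sample values. Per the submitters' processing notes, edgeR 3.9 and mm10 entered the processing at a step not specified. The aligner was not given in the sources used here, nor was the counter. The 2 tables of miRNA values were left out. Library totals are unknown, so ratios stay unscaled.

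Each ratio was matched to the smallest pair of odd whole numbers (the smaller number searched up to 19999) that gives its printed digits; the fewest reads are those numbers less 1, divided by 2. For the carrier ratios that are not whole numbers, at most 0.0253 pairs up to the size found would match a value of that precision by accident. For whole-number ratios this was not computed. Exact conditional binomial 95% intervals used scipy 1.17.1 in Python 3.11.15. The 3 ratios with no such pair, none of a carrier, were counted as of many reads. The search and the intervals were tested on simulated data. The means simulated for the intervals were above those of the form of 0 reads, so intervals of that form were hardly tested. Where a fold is given with 0 set to 3 reads, it is at the fewest reads. Symbols matched RefSeq (GRCm38.p6) as given for all 34 genes; exon overlaps are from GENCODE M21, in which 6 of the 34 share exon bases with a gene on the opposite strand. Substrate classes follow the Slc family number.

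The members, the lists and the rule for named genes were chosen with earlier results of these data known. The rule named carriers listed on at least 2 days, the 5 highest and 5 lowest ratios of each day, and related transport genes listed on at least 2 days; 2 genes that it takes are counted but not reported here by name; the text names all but 1 of the 34 carriers, and Hk2, Cth, Ass1, Abcb1a, Fap, Cdh5, Krt8, Osta and Ranbp3l were named after their values were seen. Alternatives were a minimum of 20 reads, folds of 10 and 7, current symbols, 2-fold depth differences and 2 added to the reads.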

Additional observations from a re-analysis of the deposited data

How the results depend on the processing

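Without replicates or levels, the counts of carriers rest on how the tables were drawn up. With at least 20 reads in 1 library, carriers above 1 numbered 0, 2 and 2 at days 2, 4 and 8, and those below 1 numbered 3, 1 and 6; 3 recurred between days. At 10-fold or more the counts were 0, 2 and 2 above, 5, 1 and 5 below, and 0 recurring. The alternative of 7-fold or more was chosen after seeing the data because the sides end at different folds. It gave 1 and 4 above at days 2 and 8, and 3 recurring. Recurrence over all listed genes at 10-fold and at 7-fold was not computed, so these carrier counts cannot be set against it. Both depth settings held the least listed ratio of each day and side fixed. A cut by rank would instead move with depth and keep the same carriers. If the TGFβ library had been 2 times deeper, 1, 2 and 2 carriers above 1 would still have passed the least listed ratio. If the vehicle library had been 2 times deeper, 3, 0 and 4 below 1 would have. The same counts over all listed genes were not computed, so these falls are not read as particular to the carriers. Genes outside the tables that would then enter are not counted. Current symbols left every count within 1.5 times. With 2 added to the fewest reads in place of 0.5, the 28 ratios of few reads ran from 1.5-fold to 6.67-fold. The 14 others ran from 5.25-fold to 30.2-fold. All 42 stayed within their counting interval, which is wide where reads are few. Their side could not change, as the same number was added in both libraries. No paired analysis was possible because no condition and day had replicates to pair: each ratio is already a difference within a day, days are not replicates, and the carriers were chosen by these ratios.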

Other observations

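The protein-coding gene next to Slc1a3 on chromosome 15, Ranbp3l, was listed on the same side at all 3 days. Ranbp3l encodes a nuclear export factor of the RanBP3 type. It lies at chr15:8967949-9067335 on the plus strand in GENCODE M21, 257184 bases from Slc1a3, which is on the minus strand. Its fewest reads were 64 with TGFβ against 1250 with vehicle at day 2, then 58 against 1019 and 98 against 1723. In the authors' deposited table it was 19.4-fold (95% counting interval 15.2 to 25.5), 17.4-fold (13.5 to 23.3) and 17.5-fold (14.3 to 21.8) lower. Of 208 protein-coding genes listed at all 3 days, 23 (11.1%) had an adjacent protein-coding gene listed at all 3 days on the same side. The other member listed at all 3 days, Slc9a4, had no listed neighbour.

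One carrier is hidden by an older symbol. Osta, whose current symbol is Slc51a and which encodes a chain of the organic solute and steroid transporter, was 15-fold lower on day 2 by the authors' deposited table, in the form of 0 reads against 7.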
